A study of Homo sapiens with 6 samples.

Results

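Collagens, laminins and the other building blocks of basement membranes were compared between HCT116 and E1, a pair of human colon cancer cell lines. Members were the probe sets with exactly 1 platform gene symbol of the form COL, number, A, number (the collagen chains) or LAM, A to C, number (the laminin chains), or the symbol NID1, NID2, HSPG2, AGRN, FBN1, FBN2, FBLN1 or FBLN2. They comprised 112 probe sets of 50 genes, among 11963 genes measured in all, and each gene was read from its probe set with the highest mean signal. The rule uses symbols alone, but it was set with earlier results of these data known. HCT116, an established colon carcinoma line, is labelled poorly metastatic. E1 is labelled metastatic and derived in vivo; the cell line field of its arrays names HCT116 too. The labels name no treatment, no passage number and no host for either line. Each line was measured on 3 Affymetrix arrays from total RNA, and nothing says that the arrays came from separate cultures, so that every p-value rests on array-to-array spread that could be technical.

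A basement membrane is a thin sheet of matrix beneath epithelium. Laminins are heterotrimers of an alpha, a beta and a gamma chain that polymerise at the cell surface, and collagen IV chains form a covalent network beside them. Nidogens and the heparan sulfate proteoglycans perlecan (HSPG2) and agrin (AGRN) connect these networks. Fibrillar collagens build the stroma below, in colon tumours mostly from fibroblasts, and carcinoma cells are known to secrete laminins themselves.

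Signals are linear probe set intensities in arbitrary units. Differences were taken on the log2(intensity + 32) scale as E1 minus HCT116, and their standard errors (SE) come from a limma fit over all 11963 genes. The adjusted p is Benjamini-Hochberg over all of them, and a gene is called under 0.05. E1 array 1 differed from E1 arrays 2 and 3 in RNA quality controls: the ratio of 3' to 5' control signal for GAPDH was 0.774 to 0.811 for HCT116, 0.803 for E1 array 1, and 34.1 and 71.9 for E1 arrays 2 and 3. Values for E1 array 1 alone against the HCT116 arrays therefore stand beside the results of 17 members described in full and are plotted for all 50. In that comparison E1 contributes no spread of its own, and its array is assumed to vary like those of HCT116. The median intensity per array was 48.0 to 66.5. Of 12 colon epithelial marker genes 0 were called, and their summed intensity was 17283 to 19715 in HCT116 and 11762 to 15344 in E1. Of the 12, 3 had a positive and 9 a negative log2 difference. EPCAM, KRT18, KRT8 and KRT19 were among the bright ones, whereas CDX1, CDX2 and VIL1, which mark intestinal epithelium, reached no more than 17.2, 22.5 and 18.7. KRT8 read 4693, 3169 and 4352 in HCT116 and 2862, 372 and 103 in E1. Its difference was -2.91 (SE 1.03), and -0.48 with E1 array 1 alone. KRT19 stood at -0.80 (SE 0.35), and at -0.18 with E1 array 1 alone. KRT18 stood at -0.40 (SE 0.13), and at -0.32 with E1 array 1 alone. The 3 positive markers were EPCAM at 0.40 (SE 0.27), KRT20 at 0.50 (SE 0.34) and CDH1 at 0.03 (SE 0.29). With E1 array 1 alone these 3 stood at -0.20, 0.42 and -0.21. Of 8 fibroblast markers 0 were called, with a summed intensity of 317 to 354 in HCT116 and 241 to 383 in E1. No marker was listed at 0. LUM and FAP stayed at or below 2.96 and 10.02, DCN read 78.0 to 97.4, THY1 61.1 to 90.9 and ACTA2 59.0 to 154.7, and 2 of the 8 fibroblast markers had a line mean above the median gene level. The endothelial list (7 genes, 0 called) summed to 145.9 to 177 and 149.3 to 215, and the leukocyte list (5 of 7 measured, 0 called) to 177 to 255 and 135 to 189. HCT116 and E1 are cell lines, and these sums are not read as shares of cell types. In such bulk RNA, fewer cells with a transcript and less of it per cell cannot be told apart. The part of the 3' to 5' control ratio in these sums was not tested.

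Upstream sequences were matched by symbol for 38 of the 50 genes in RefSeq's table of GRCh38.p14. Those shown are COL18A1, with 2 annotated starts and probe sets that disagreed, the laminin chains LAMB1 and LAMC1, whose probe sets agreed and whose differences had opposite signs, and the interval between the divergent starts of COL4A1 and COL4A2, a pair whose values were close to equal in both lines. COL6A1, COL9A3 and AGRN were among the 12 genes without a match. Each of the first 4 gives the 250 bases before a start, 5′ to 3′ on the gene's strand, and the last gives the plus strand. Capitals mark matches, on either strand, to GGGCGG (the GC box core), CCAAT (the CCAAT box) or TATAAA (the TATA box), and matches may overlap.

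COL18A1, first start, chr21:45404915-45405164, plus strand: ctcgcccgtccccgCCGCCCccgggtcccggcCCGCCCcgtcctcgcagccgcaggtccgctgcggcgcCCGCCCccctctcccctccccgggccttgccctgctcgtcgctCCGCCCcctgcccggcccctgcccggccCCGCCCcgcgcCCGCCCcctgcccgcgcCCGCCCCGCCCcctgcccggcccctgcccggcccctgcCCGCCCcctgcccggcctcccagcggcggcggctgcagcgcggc
COL18A1, second start, chr21:45455272-45455521, plus strand: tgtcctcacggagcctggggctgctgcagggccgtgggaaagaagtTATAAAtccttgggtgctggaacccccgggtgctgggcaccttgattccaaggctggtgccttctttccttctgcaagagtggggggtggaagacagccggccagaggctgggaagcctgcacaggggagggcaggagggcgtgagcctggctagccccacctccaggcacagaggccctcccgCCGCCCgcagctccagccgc
LAMB1, chr7:108003162-108003411, minus strand: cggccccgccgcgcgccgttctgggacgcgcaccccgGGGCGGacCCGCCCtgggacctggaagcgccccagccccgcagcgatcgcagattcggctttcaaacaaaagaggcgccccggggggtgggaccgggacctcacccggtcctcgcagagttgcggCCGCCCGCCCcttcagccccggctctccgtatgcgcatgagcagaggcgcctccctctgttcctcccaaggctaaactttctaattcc
LAMC1, chr1:183023170-183023419, plus strand: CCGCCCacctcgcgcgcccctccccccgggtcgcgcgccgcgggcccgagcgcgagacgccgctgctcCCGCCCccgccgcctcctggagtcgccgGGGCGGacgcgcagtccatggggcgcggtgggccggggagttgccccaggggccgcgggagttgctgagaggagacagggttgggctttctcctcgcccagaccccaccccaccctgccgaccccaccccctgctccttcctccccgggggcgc
COL4A1 to COL4A2, chr13:110307158-110307283, plus strand: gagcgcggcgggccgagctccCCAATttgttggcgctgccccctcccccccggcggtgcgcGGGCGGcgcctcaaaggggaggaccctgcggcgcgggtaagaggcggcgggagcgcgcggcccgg

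The GC box core occurred 9 times before the first COL18A1 start, 1 time before the second, 4 times before LAMB1 and 3 times before LAMC1. At least 1 occurred in 42.6% of 35116 RefSeq windows of 250 bases. A TATA box was present only before the second COL18A1 start among these windows, against 10.7% of all windows, and no CCAAT box was present in those 4, against 32% of all. The interval of COL4A1 and COL4A2 measured 126 bases and held 1 GC box core and 1 CCAAT box, found in 34.6% and 21.1% of the last 126 bases before all starts. These matches describe the letters and not use by a factor.

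None of the 50 genes passed the test over all genes in the limma fit with all 6 arrays, where 50 of 11963 genes were called (0.418%). At an unadjusted p under 0.05, 7 of the 50 were higher in E1 and 2 were lower. The same rule held for 5.29% of all genes in the higher direction and 9.7% in the lower, 15% in all. The members' median log2 difference was 0.02, in a range from -1.62 to 1.86, and the median of all genes was -0.01. All E1 arrays lay above all HCT116 arrays for 9 members and below for 3, against 8.18% and 10.7% of all genes. With E1 array 1 alone 0 members were called (0.0167% of all genes) and 8 had an unadjusted p under 0.05, 5 higher (4.44% of all genes) and 3 lower (7.05%), with the spread taken from the 3 HCT116 arrays alone. Without E1 array 1, 6 members were called (8.97% of all genes), 3 higher (1.64% of all genes) and 3 lower (7.33%).

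**Figure D1:**
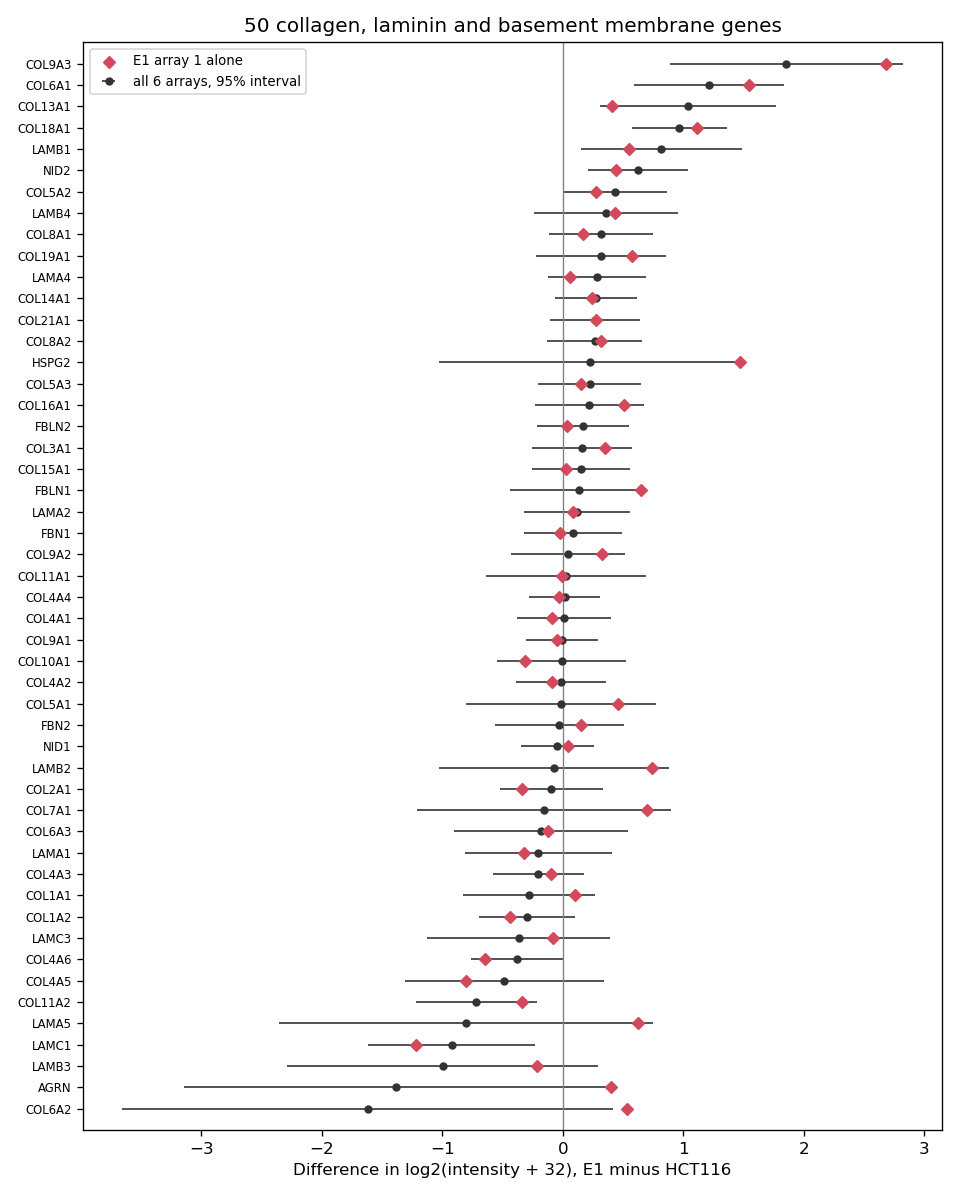
Difference in log2(intensity + 32), E1 minus HCT116, for each of the 50 genes. Black points with lines give the limma estimate over 6 arrays with its 95% interval and red diamonds give E1 array 1 alone against the HCT116 arrays. COL9A3 stands at one end at 1.86 and COL6A2 at the other at -1.62, and the red diamonds of COL6A2, AGRN and LAMA5 lie to the right of 0.

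Among the laminins, LAMC1 and LAMB1 had values of opposite sign, and neither passed the test over all genes. LAMC1 encodes the gamma chain shared by most laminin trimers. It read 437, 515 and 329 in HCT116 and 163, 163 and 325 in E1. The groups were close to touching, since the highest E1 array lay just below the lowest HCT116 array. The log2 difference was -0.92 (SE 0.29, adjusted p = 0.256, limma), with a 95% interval from -1.62 to -0.23, and -1.22 with E1 array 1 alone. A second LAMC1 probe set read 180.1, 212 and 181 in HCT116 and 73.1, 103 and 95.7 in E1, without overlap. In the fit over single probe sets it stood at -0.87 (adjusted p = 0.0654). On both LAMC1 probe sets E1 arrays 2 and 3 read at or above E1 array 1.

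LAMB1, the beta chain of the laminins that pair with LAMC1 in embryonic and many epithelial basement membranes, read 59.8, 62.2 and 36.3 in HCT116 and 90.7, 87.5 and 189 in E1. All E1 arrays lay above all HCT116 arrays, with E1 array 3 standing apart at the top. The log2 difference was 0.82 (SE 0.28, adjusted p = 0.277, limma) and 0.55 with E1 array 1 alone. Its other probe set gave 24.01, 52.2 and 28.8 against 72.6, 57.2 and 154.6, a log2 difference of 0.87 (adjusted p = 0.261 over single probe sets). Both probe sets of LAMB1 therefore had E1 above HCT116 on every array, and both of LAMC1 had E1 below.

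LAMA5, LAMB3 and LAMB2 spread more widely within a line than LAMC1 and LAMB1, with SEs of 0.65, 0.54 and 0.40. LAMA5, the alpha chain of the main laminins of adult epithelium, read 241, 345 and 288 in HCT116 and 461, 143.4 and 39.5 in E1. Its E1 arrays lay on both sides of HCT116, with array 1 above and arrays 2 and 3 below, and its log2 difference of -0.80 had a 95% interval from -2.35 to 0.75 and was 0.62 with E1 array 1 alone. LAMB3, a chain of the anchoring laminin of epithelia, read 133, 527 and 166.7 in HCT116 and 194.8, 69.2 and 68.3 in E1. HCT116 array 2 stood apart from the others of its line, and the difference was -0.997 (SE 0.54, adjusted p = 0.442, limma), but -0.46 without HCT116 array 2 and -0.22 with E1 array 1 alone. LAMB2, the beta chain of vascular and neuromuscular laminins, read 78.0, 130.2 and 68.2 against 170.2, 39.1 and 74.9, so that the lines overlapped at a difference of -0.07 (95% interval from -1.03 to 0.88), and at 0.74 with E1 array 1 alone. LAMA2, the alpha chain typical of muscle, read 65.4, 79.9 and 102.9 against 88.6, 76.2 and 111.9, and the lines overlapped with a difference of 0.12 (95% interval from -0.32 to 0.56), and 0.08 with E1 array 1 alone. LAMA1, LAMA4, LAMB4 and LAMC3 had differences from -0.36 to 0.36, and none had an unadjusted p under 0.05 on the probe set that stood for it. LAMA4, the alpha chain of endothelial laminins, was at 0.28 there, but another of its 5 probe sets read 33.8, 34.3 and 28.0 in HCT116 and 19.1, 11.1 and 12.2 in E1. All E1 arrays of that probe set lay below HCT116, at -0.48 (adjusted p = 0.164 over single probe sets).

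**Figure D2:**
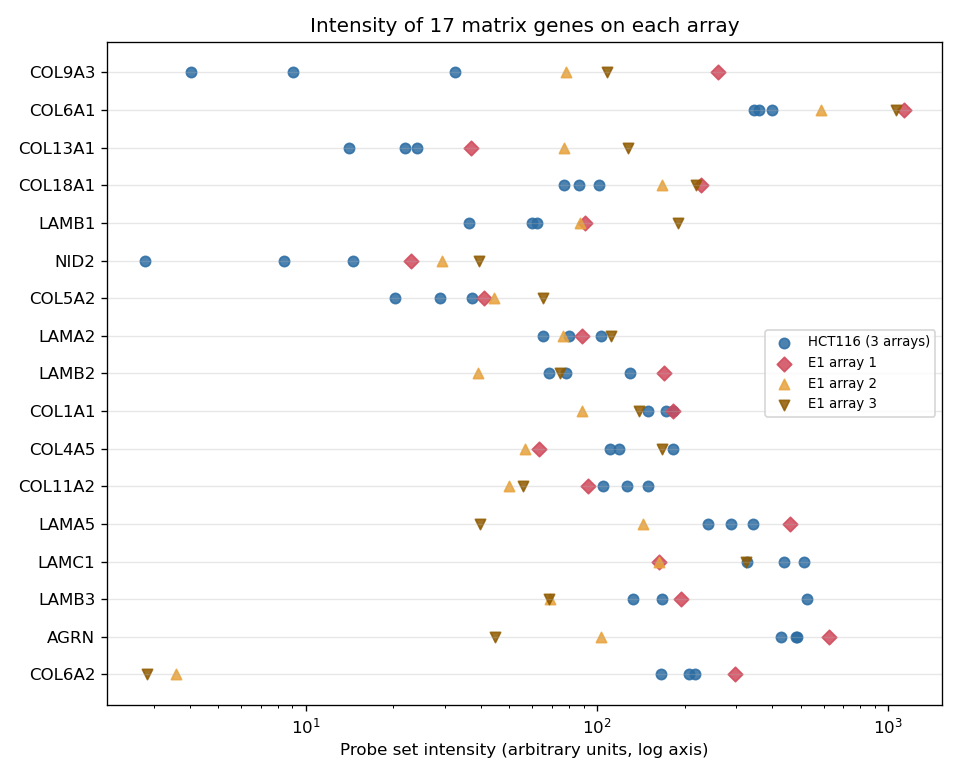
Probe set intensity (log axis) of the 17 members that either had an unadjusted p under 0.05 or reached, in at least 1 line, a mean level above the median gene. Blue circles are HCT116 arrays and the other symbols are E1 arrays 1, 2 and 3. The COL6A2 symbols of E1 arrays 2 and 3 lie far to the left, at 3.59 and 2.84, while E1 array 1 lies at 297.

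Of the 8 collagens counted as basement membrane collagens, COL18A1 had the smallest p of all 50 members. COL18A1 encodes the core protein of a heparan sulfate proteoglycan whose C-terminal fragment is endostatin. It read 101.5, 86.5 and 77.2 in HCT116 and 228, 166.7 and 218 in E1. Each E1 array lay above every HCT116 array, at a log2 difference of 0.97 (SE 0.16, adjusted p = 0.0952, limma), a 95% interval from 0.57 to 1.36, and 1.12 with E1 array 1 alone. It was called after quantile normalization, at 1.16 (adjusted p = 0.0295, limma), and after subtraction of array medians, at 1.12 (adjusted p = 0.0353, limma). Under these settings 63 and 66 of all 11963 genes were called. Over all alternatives run its adjusted p went from 0.0295 to 0.979.

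The other probe set of COL18A1 did not behave alike. It read 145.7, 140.5 and 86.0 in HCT116 and 255, 23.6 and 4.08 in E1. E1 array 1 was the highest of the 6 arrays, as in the first probe set, whereas E1 arrays 2 and 3 were the lowest. Its log2 difference was -0.88 (adjusted p = 0.644 over single probe sets), and the mean of both probe sets stood at 0.04. The arrays on which the probe sets part are those with a high 3' to 5' control ratio, and the part of that ratio in the result was not tested.

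**Figure D3:**
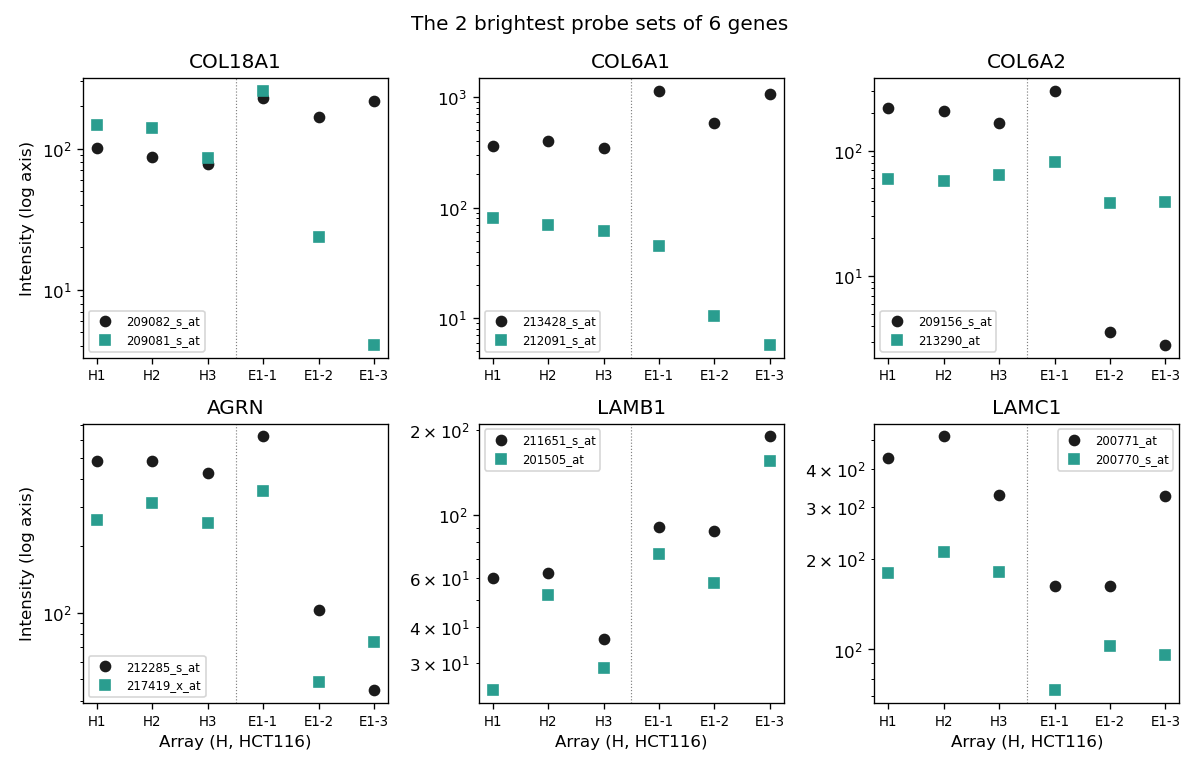
Intensity (log axis) on the 6 arrays of the 2 brightest probe sets of COL18A1, COL6A1, COL6A2, AGRN, LAMB1 and LAMC1, HCT116 arrays left of the dotted line and E1 arrays right of it. For COL18A1 the squares drop from 255 on E1 array 1 to 23.6 and 4.08 on E1 arrays 2 and 3 while the circles stay between 166.7 and 228, whereas both probe sets of LAMB1 and of LAMC1 keep to their side of HCT116.

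The collagen IV genes lie in head-to-head pairs, with 126 bases between the starts of COL4A1 and COL4A2 on chromosome 13, 418 between COL4A4 and COL4A3 on chromosome 2, and 379 between COL4A5 and the nearer start of COL4A6 on chromosome X. COL4A1 and COL4A2 encode the chains of the ubiquitous collagen IV network. COL4A1 read 29.3, 30.3 and 19.8 in HCT116 and 22.7, 21.7 and 36.9 in E1, with overlap and a difference of 0.01 (95% interval from -0.38 to 0.40). COL4A2, across the interval shown above, read 28.5, 40.6 and 34.0 against 30.2, 44.1 and 27.5, a difference of -0.01 (95% interval from -0.39 to 0.36). Both genes stayed below the median gene level of 88.1 on every array, where the offset understates a change.

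COL4A5 and COL4A6 encode the chains of a network found in smooth muscle and some epithelia. COL4A5 read 110.7, 182 and 119 in HCT116 and 63.3, 56.6 and 167 in E1, and E1 array 3 lay among the HCT116 arrays. Its difference was -0.48 (SE 0.34, adjusted p = 0.566, limma). COL4A6, its divergent neighbour, read 77.6, 81.4 and 71.3 against 37.6, 61.3 and 58.2, with all E1 arrays below, at -0.38 (SE 0.16, adjusted p = 0.337, limma). With E1 array 1 alone the pair stood at -0.80 and -0.64, and neither was called. COL4A3 stood at -0.20 and COL4A4 at 0.02, the latter at intensities of 2.17 to 5.60.

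In the collagen VI family, whose chains assemble into beaded filaments at the border of basement membrane and stroma, the probe sets gave opposite pictures. COL6A1 read 359, 399 and 345 in HCT116 and 1133, 587 and 1065 in E1. All E1 arrays lay above HCT116, at 1.21 (SE 0.26, adjusted p = 0.144, limma) and at 1.55 with E1 array 1 alone. Of its 8 probe sets, however, 3 had a positive and 5 a negative sign. The next in mean signal read 81.0, 69.0 and 61.7 in HCT116 and 44.6, 10.6 and 5.73 in E1, at -1.04 (adjusted p = 0.173 over single probe sets). On E1 array 1 the first probe set was therefore the highest of its 6 arrays and this one lower than on any HCT116 array. The mean of the 8 probe sets gave -0.15 for COL6A1, and with all _x_at and _s_at probe sets removed it stood at -0.46.

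COL6A2, the neighbouring gene on chromosome 21, read 217, 207 and 166.5 in HCT116 and 297, 3.59 and 2.84 in E1. E1 array 1 was above all HCT116 arrays and E1 arrays 2 and 3 were far below, so the difference of -1.62 had a 95% interval from -3.66 to 0.42. With E1 array 1 alone it was 0.53 and without that array -2.69 (adjusted p = 0.00116, limma), in a range of adjusted p from 0.00116 to 0.818 over the alternatives. The other COL6A2 probe set read 59.6, 57.1 and 63.8 in HCT116 and 80.9, 37.9 and 38.9 in E1, with E1 array 1 again the highest and E1 arrays 2 and 3 again the lowest. COL6A3, a long chain of the same trimer, read 37.0, 46.0 and 7.16 against 22.6, 9.42 and 32.2 and overlapped, at -0.18.

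Among the other collagens of the network and fibril-associated classes, COL9A3 had the largest difference of all 50 genes on this scale. It encodes a chain of collagen IX, known from cartilage, where it decorates fibrils. It read 9.06, 32.6 and 4.05 in HCT116 and 261, 78.2 and 108.6 in E1. All E1 arrays lay above HCT116, with E1 array 1 the highest, at 1.86 (SE 0.40, adjusted p = 0.146, limma), a 95% interval from 0.89 to 2.82, and 2.68 with E1 array 1 alone. The low HCT116 signals make the size depend on the offset: it was 3.46 with an offset of 1 and 1.05 with an offset of 100. The partner chains COL9A1 and COL9A2 stood at -0.01 and 0.04, with overlapping arrays, and each of the COL9 genes had 1 probe set. COL7A1, the anchoring fibril collagen of skin and mucosa, read 64.2, 19.98 and 65.1 against 95.3, 11.3 and 31.8, with a difference of -0.15 (95% interval from -1.21 to 0.90) and 0.70 with E1 array 1 alone.

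COL13A1, a transmembrane collagen of cell adhesion sites, read 22.0, 24.1 and 14.1 in HCT116 and 37.0, 77.1 and 128 in E1. Its E1 arrays lay above HCT116, and here E1 array 1 was the lowest of its line. The difference was 1.04 (SE 0.31, adjusted p = 0.232, limma) but 0.41 with E1 array 1 alone. The other probe sets of COL13A1 stood at -0.07 and 0.22, and the mean of the 3 at 0.39.

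The fibrillar collagens, of which 9 were measured, showed no common direction, with 4 positive and 5 negative differences. COL1A1, a chain of the most abundant stromal collagen, read 182.8, 149.6 and 172 in HCT116 and 182, 88.6 and 139.1 in E1, with overlap and a difference of -0.28 (95% interval from -0.83 to 0.26), and 0.10 with E1 array 1 alone. Another COL1A1 probe set read 21.0, 22.8 and 39.0 against 84.3, 69.9 and 75.5, with all E1 arrays above, at 0.88 (adjusted p = 0.0761 over single probe sets). The probe sets of COL1A1 thus disagreed in sign, 2 positive and 2 negative. They differed in level too. The one that stood for the gene, an _x_at probe set, averaged 152.4 over all arrays, and the others averaged 52.1, 14.9 and 29.1. COL11A2, a cartilage fibril chain, read 127, 105.1 and 149.8 in HCT116 and 93.0, 49.7 and 55.6 in E1, all below, at -0.72 (SE 0.21, adjusted p = 0.231, limma) and -0.34 with E1 array 1 alone. Its other probe set had the opposite sign, at 0.27. COL5A2, a chain that regulates fibril diameter, read 37.3, 28.8 and 20.2 against 40.9, 44.2 and 65.2, all above, at 0.43 (SE 0.18, adjusted p = 0.333, limma) and 0.27 with E1 array 1 alone.

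Among the linkers, NID2, a nidogen that bridges laminin and collagen IV, read 8.42, 2.80 and 14.5 in HCT116 and 22.9, 29.5 and 39.4 in E1. All E1 arrays lay above HCT116, at 0.63 (SE 0.17, adjusted p = 0.217, limma) and 0.45 with E1 array 1 alone, all at signals below the median gene level. Its homologue NID1 read 29.7, 24.5 and 28.4 against 29.3, 22.8 and 25.1, overlapping at -0.04 (95% interval from -0.35 to 0.26). AGRN read 485, 481 and 427 in HCT116 and 624, 103.1 and 44.7 in E1. E1 array 1 was the highest of the 6 arrays and E1 arrays 2 and 3 the lowest. The difference of AGRN was -1.39 (SE 0.73, adjusted p = 0.431, limma) with all arrays, 0.40 with E1 array 1 alone and -2.28 (adjusted p = 0.00667) without it, with adjusted p between 0.00667 and 0.851 across alternatives. A second bright AGRN probe set read 261, 312 and 253 in HCT116 and 354, 48.4 and 73.9 in E1, in the same pattern. Of the 4 AGRN probe sets 2 were negative and 2 positive. The positive ones, at 0.09 and 0.12, were dim, with E1 at 19.3, 19.8 and 74.0 and at 47.9, 21.3 and 45.4. HSPG2 read 6.17, 31.4 and 14.2 against 101.3, 3.85 and 5.73, so that E1 array 1 alone gave 1.47 and all arrays 0.23 (SE 0.52). The other HSPG2 probe set read 16.6, 11.3 and 24.2 in HCT116 and 13.0, 7.99 and 5.05 in E1, at -0.28. On it E1 array 1 lay within the range of HCT116.

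The microfibril genes FBN1, FBN2, FBLN1 and FBLN2, which encode fibrillins and fibulins of elastic fibres, stood between -0.03 and 0.16, and none had an unadjusted p under 0.05. FBLN1 had 5 probe sets, and its brightest read 70.9, 72.7 and 75.7 in HCT116 and 132.8, 58.5 and 70.4 in E1, with E1 array 1 apart and a difference of 0.65 with that array alone. Another FBLN1 probe set read 10.2, 5.31 and 21.2 against 68.8, 50.6 and 95.1, all E1 arrays above, at 1.22 (adjusted p = 0.0758 over single probe sets).

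A drop from E1 array 1 to both E1 arrays 2 and 3 by at least 1 on the log2 scale, a count chosen after the values were seen, occurred for 6 of the 50 members (12%) and for 4.51% of all genes. These were COL6A2, by differences of -3.21 and -3.24, AGRN at -2.28 and -3.10, LAMA5 at -1.49 and -2.79, HSPG2 at -1.89 and -1.82, COL9A3 at -1.41 and -1.06 and LAMB3 at -1.16 and -1.18. On their other probe sets HSPG2 stood at -0.17 and -0.28 and COL6A2 at -0.69 and -0.67. Those of AGRN stood at -2.26 and -1.87, at 0.01 and 1.05, and at -0.58 and -0.05. COL9A3, LAMA5 and LAMB3 had 1 probe set each. No member was higher by as much on both, as were 0.401% of all genes. The GAPDH and ACTB control ratios moved on the same arrays, the latter from 1.12 on E1 array 1 to 46.1 and 89.9, and their part in these differences was not tested.

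**Figure D4:**
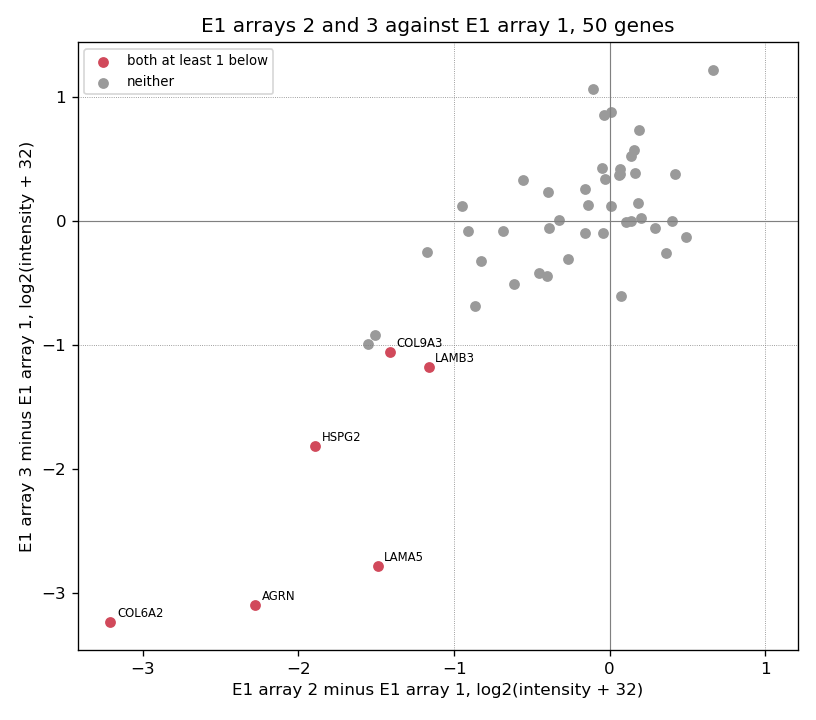
For each of the 50 genes, E1 array 2 minus E1 array 1 (horizontal) against E1 array 3 minus E1 array 1 (vertical), in log2(intensity + 32), with dotted lines at -1 and 1. The 6 named red points lie at or below -1 on both axes, down to COL6A2 at -3.21 and -3.24, and most other genes lie within 1 of 0.

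Probe sets of 1 gene often disagreed. Of 33 members with several probe sets, all had the same sign in 12 and signs were mixed in 21. Of the 62 probe sets that did not stand for their gene, 31 had the sign opposite to the one that did. Only 3 of the 62, of AGRN, COL18A1 and LAMC1, had a mean intensity of at least 100, and 1 of these, that of COL18A1, was opposite. The 112 probe sets yielded 0 calls in the limma fit over single probe sets, where 0.77% of all 22215 probe sets were called. At an unadjusted p under 0.05 there were 17 of the 112 (15.2%), against 16.5% of all probe sets.

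Members outside the 17 described by rule were 33, with differences from -0.38 to 0.36, 19 positive and 14 negative, at line means from 2.94 to 87.2. Detection calls were not used here, so none of them is called absent.

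Of 27 measured enzymes and chaperones of collagen synthesis 0 passed in limma, and at an unadjusted p under 0.05 there were 1 higher and 3 lower. Over all genes that p held for 5.29% in the higher direction and 9.7% in the lower, 15% in all. These shares apply to the counts of receptors and of other matrix proteins below too. PXDN, the peroxidasin that forms sulfilimine bonds in collagen IV, read 123 ± 18.9 (SD, n = 3) in HCT116 and 232 ± 36.5 in E1, at 0.77 (SE 0.17). SERPINH1, the collagen chaperone HSP47, read 596 ± 165 and 276 ± 170.2, at -1.14 (SE 0.42). COLGALT1, which glycosylates collagen hydroxylysine, stood at -1.59 (SE 0.52), but at -0.31 with E1 array 1 alone. Of 19 collagen and laminin receptor genes 0 were called in limma, and at an unadjusted p under 0.05 there were 2 higher and 1 lower. ITGA6, the alpha chain of laminin-binding integrins, read 351.4 ± 41.8 and 90.4 ± 48.4, at -1.71 (SE 0.28) and -2.13 with E1 array 1 alone. The hyaluronan receptor CD44 stood at 0.62 (SE 0.20) and the agrin receptor LRP4 at 0.46 (SE 0.19). Of 35 other matrix protein genes 1 was called, higher in E1, as were 0.217% of all genes. At an unadjusted p under 0.05 there were 2 higher and 1 lower. The called gene was SPARC, a collagen-binding matricellular protein, at 4.44 (SE 0.33, adjusted p = 0.0118, limma). It was not called without HCT116 array 1, 2 or 3, at adjusted p of 0.106, 0.0801 and 0.0518 and log2 differences of 4.25, 4.39 and 4.68. MATN2, a matrilin, stood at 0.71 (SE 0.29). LTBP3, a latent TGF-beta binding protein, gave -2.87 (SE 1.20) over 6 arrays but 0.17 for E1 array 1 alone.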

How the data were processed

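Expression was measured on 3 arrays each of HCT116 and E1. The deposited values are linear intensities per probe set (22283), and how the authors summarized, background-corrected or scaled them is not given in the sources used here. They were used as log2(intensity + 32) without further normalization. The 68 control probe sets were left out, 19065 probe sets carried 1 symbol, and each of 11963 genes was read from its brightest probe set. The comparison used lmFit and eBayes of limma 3.58.1 (R 4.3.3), two-sided, with adjustment over all genes. Tested on 20 simulations of this comparison with 200 of 11963 genes changed, 35.8% of changes of 1 and 81% of changes of 2 on the log2 scale were recovered, and 4.02% of calls were false.

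The members and lists were chosen with earlier results of these data known. Members were named if called, at an unadjusted p under 0.05, or with a line mean above the median of all gene means; 14 of 50 passed the last. From each related list, called genes and up to 3 with the smallest p were named. Other members with values, and single probe sets, were named after their values were seen. Sequences come from RefSeq's GRCh38.p14 table. The number of arrays limits the precision. Some genes are not analysed here. Alternatives were other normalizations, offsets, filters, probe set rules, a block on the replicate number, a trended robust fit, and arrays left out.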

Additional observations from a re-analysis of the deposited data

How the results depend on the processing

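With all arrays kept, COL18A1 was the 1 member called under quantile normalization and under subtraction of array medians. Of all 11963 genes, quantile normalization gave 63 calls, 43 higher and 20 lower. Subtraction of array medians gave 66 calls, 45 higher and 21 lower. Under the other 7 alternatives that kept all arrays 0 members were called, and the filter on dim genes left 19 of the 50 members to test. Leaving out 1 array gave 0 to 6 members called and 2 to 1073 genes called in all. The 6 were called without E1 array 1: COL18A1, COL9A3 and COL13A1 higher, and COL11A2, COL6A2 and AGRN lower, at adjusted p from 0.00116 to 0.0361. With an offset of 100, 10 of 11963 genes were called. With _x_at and _s_at probe sets removed, 8 of the 8369 genes tested were called. At an unadjusted p under 0.05 there were 5 members with the mean of probe sets and 5 with those ending in _x_at or _s_at removed, where 36 of the 50 were tested. The share of all genes at that p was not counted under these rules, so neither count can be set against it. The members' median was 0.17 with array medians subtracted, which moved the median of all genes to 0.14. Deviations of same-numbered arrays correlated at -0.06, -0.36 and -0.12, none of them positive. These values cannot decide whether numbers pair the arrays. E1 array 1 differed from the other E1 arrays in RNA quality controls, a split that the HCT116 arrays did not show. With the replicate block 2 genes and 0 members were called, and 0 of the other matrix proteins.

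Signs turned with E1 array 1 alone for AGRN (0.40), COL6A2 (0.53), LAMA5 (0.62), LAMB2 (0.74) and COL1A1 (0.10). They turned with the mean of probe sets for COL6A1 (-0.15) and COL1A1 (0.18), and with _x_at and _s_at probe sets removed for AGRN (0.12), COL6A1 (-0.46) and COL11A2 (0.27). LAMB2 stood at 0.12 under quantile normalization, 0.077 with array medians subtracted and -0.48 to 0.28 with 1 array left out. The cause of these changes was not tested. In the related lists, leaving out 1 array gave 0 to 3 calls in each. The 3 came without E1 array 1, where 8.97% of all genes were called. Among receptors 1 gene was called without dim genes and 1 with the mean of probe sets. Among other matrix proteins 0 were called with _x_at and _s_at probe sets removed and 0 with E1 array 1 alone. Signals below the offset of 32 carry little order.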
